A study of Bursaphelenchus xylophilus with 12 samples.

Results

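The most abundant transcripts of the adult pine wood nematode, Bursaphelenchus xylophilus, which causes pine wilt disease, are described here as the 131 gene IDs starting with BXY whose mean FPKM over all 12 libraries was at least 800. FPKM gives the fragments of a gene per kilobase of its length, relative to the total of the library. They were 131 of 17704 BXY IDs (0.740%), selected on their measured level, so their levels, ranks and share of a library are a description and carry no test. All 131 passed the filter for testing, which asked for 3 or more libraries at 1 FPKM or above.

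In a nematode such as Caenorhabditis elegans, the most abundant messenger RNAs of adults commonly encode ribosomal proteins, muscle and cytoskeletal proteins, cuticle collagens, energy metabolism enzymes, and, depending on sex, yolk proteins or major sperm proteins. Because a sequencing library is a fixed budget of reads, a few such transcripts can take a large share of it, and a change in them shifts the relative level of every other gene. Emamectin benzoate belongs to the avermectins, which open glutamate-gated chloride channels of invertebrates and paralyse nerve and muscle. The IDs of the deposited table came without gene names or products, so the abundant transcripts are given by ID, and which of these classes each belongs to was not analysed here. For the same reason the labelled stage was not checked against marker genes.

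Adults of strain NB-6, 200 per library, were grown on the fungus Botrytis cinerea and then immersed at 25 °C. The agent groups, EB12 and EB24, were in emamectin benzoate at 0.1 mg/L for 12 h or 24 h, and the groups EC12 and EC24 were taken as the matching adjuvant controls (octylphenol polyoxyethylene-10 and n-butyl alcohol) by elimination, since the treatment text abbreviates the adjuvant as ON. Each of the 4 groups held 3 libraries. No untreated group without adjuvant and no time before immersion was analysed here, and the sex of the adults is not given in the labels. The titles of the 12 h libraries carry a group number that those at 24 h lack, and it differs between EC12 and EB12. Any difference behind that number cannot be told apart from time, nor from agent at 12 h and in the interaction. The labels do not say whether replicates were separate cultures, so the spread behind each p-value may be technical. FPKM summed to 824088 to 944595 per library, and read depth is unknown. In whole worms, fewer cells of a type and less RNA per cell cannot be told apart.

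The abundant IDs held between 22.1% and 29.2% of the FPKM sum of a library, a share of the transcripts per length rather than of the reads. Their share was 22.3% ± 0.312 (SD, n = 3) in EC12 and 24.0% ± 1.44 in EB12 at 12 h, against 28.4% ± 1.02 in EC24 and 25.6% ± 0.450 in EB24 at 24 h. The 3 EC12 libraries stood at 22.1%, 22.2% and 22.7%, and the 3 EB12 libraries at 23.5%, 22.9% and 25.6%. The 3 EC24 libraries stood at 27.2%, 28.8% and 29.2%, and the 3 EB24 libraries at 26.1%, 25.4% and 25.3%. Every library of EC24 was above every library of the other 3 groups, and every EC12 library was below all others; EB12 replicate 3 stood above 2 of the EB24 libraries. Quantile normalization gives every library the same distribution of values, which by construction brings the shares of the highest IDs close together; under it the share was 24.8% in EC12 and 24.4% in EB12 at 12 h, against 25.5% in EC24 and 25.8% in EB24 at 24 h.

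**Figure D1:**
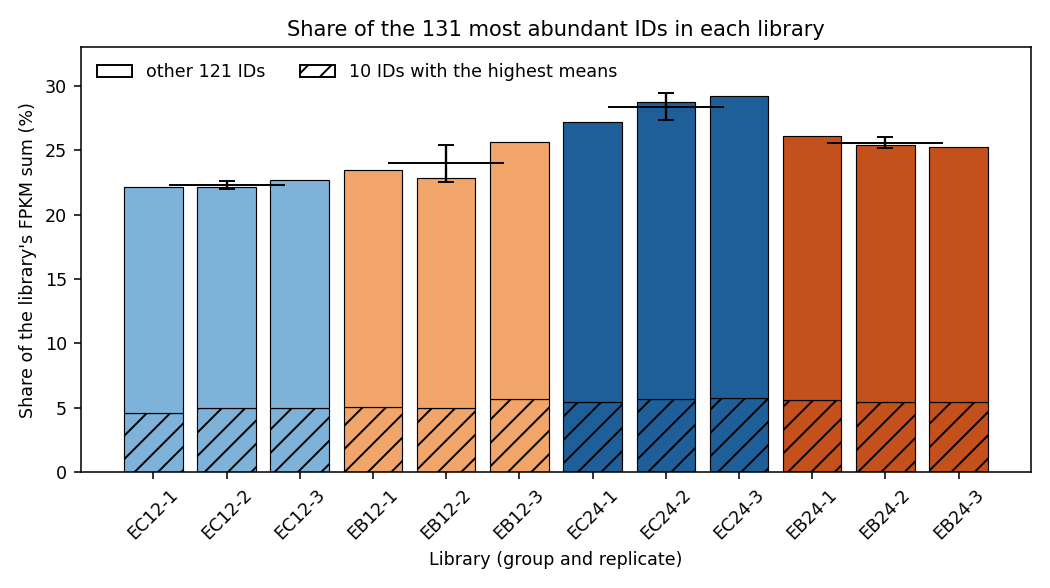
Share of the library's FPKM sum (%) held by the 131 most abundant IDs in each of the 12 libraries, with the 10 IDs of highest mean hatched and the other 121 plain; bars with caps give the group mean and SD (n = 3). The 3 EC24 libraries reach 27.2% to 29.2%, and the 3 EC12 libraries 22.1% to 22.7%.

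Behind the shares, the summed FPKM of the abundant IDs was 185545 ± 2735 in EC12 and 207629 ± 12429 in EB12 at 12 h, against 266729 ± 11343 in EC24 and 236571 ± 5127 in EB24 at 24 h (SD, n = 3). The sum over the remaining IDs of the table was 645839 ± 11038, 658014 ± 13110, 672540 ± 5116 and 687658 ± 4897 in the same order. EC24 therefore stood above EC12 by 81184 FPKM over the abundant IDs and by 26701 over the remaining IDs. Between the agents at 24 h the abundant IDs stood 30158 FPKM apart, lower in EB24, and the remaining IDs 15119 FPKM apart, higher in EB24. The number of IDs needed to reach 50% of a library's sum was 831 ± 26.2 in EC12 and 709 ± 55.0 in EB12 at 12 h, against 542 ± 41.6 in EC24 and 714 ± 23.6 in EB24 at 24 h, so the 24 h control libraries were the most concentrated.

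The 10 IDs with the highest means took 4.84% ± 0.212 of the sum in EC12 and 5.24% ± 0.381 in EB12 at 12 h, against 5.63% ± 0.184 in EC24 and 5.50% ± 0.108 in EB24 at 24 h. The other 121 took 17.5% ± 0.279, 18.8% ± 1.06, 22.8% ± 0.839 and 20.1% ± 0.344 in the same order (SD, n = 3). The ranges of EC24 and EB24 overlapped for the first 10 IDs and did not overlap for the other 121. The median FPKM of the 131 IDs was 1191 ± 43.1 in EC12 and 1321 ± 77.2 in EB12 at 12 h, against 1757 ± 80.8 in EC24 and 1456 ± 37.4 in EB24 at 24 h.

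BXY_0569100 was the most abundant ID in all 12 libraries. It stood at 11552, 10525 and 11266 FPKM in the EC12 libraries, 9569, 10511 and 12151 in EB12, 14227, 14047 and 14219 in EC24, and 10231, 9766 and 9836 in EB24. All EC24 libraries were above all others, and this ID alone made up 1.51% ± 0.0167 of the FPKM sum in EC24 against 1.08% ± 0.0266 in EB24 (SD, n = 3). The difference of EB24 from EC24 was -0.51 ± 0.07 in log2(FPKM + 1) (SE; limma, adjusted p = 0.000285). The adjusted p was 0.0526 when all 12 libraries shared 1 estimate of the spread and 0.256 with no filter on low values, and under quantile normalization the difference is 0 by construction, since the ID ranks first in every library. Its change with time was 0.35 ± 0.19 in EC (adjusted p = 0.165) and -0.10 ± 0.17 in EB (limma, adjusted p = 0.649), neither past the test.

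BXY_0322900 was second in the mean of every group. It stood at 5570, 6184 and 3500 FPKM in EC12, 7839, 4726 and 9555 in EB12, 8109, 9656 and 9843 in EC24, and 9828, 9353 and 9444 in EB24. The 12 h libraries were spread and overlapped between the agents, and the 24 h libraries of both agents lay close together. It rose from EC12 to EC24 by 0.89 ± 0.25 on the log2 scale (limma, adjusted p = 0.0190), while EB24 and EC24 differed by 0.06 ± 0.09 (adjusted p = 0.614). That rise was 0.64 without EC12 replicate 3 (adjusted p = 0.0526), and its adjusted p was 0.0742 without EC24 replicate 2 and 0.0792 without EC24 replicate 3. It was 0.25 with quantile normalization (adjusted p = 0.404), and with no filter on low values its adjusted p was 0.239.

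Below these the order depended on the group. BXY_0020300 ranked 3 in EC12, EB12 and EB24 and 13 in EC24. BXY_0804400 ranked 3 in EC24, 53 in EC12, 96 in EB12 and 24 in EB24. BXY_0906600 ranked 5, 5 and 4 in EC12, EB12 and EB24, and 44 in EC24. BXY_1577700 ranked 8 in EC12 and 4 in EB12 at 12 h, against 51 in EC24 and 12 in EB24 at 24 h. BXY_1766200 moved from 138 in EC12 and 68 in EB12 to 19 in EC24 and 7 in EB24. Of the first 20 IDs of EC12, 9 were also among the first 20 of EC24; of the first 20 of EB12, 13 were among those of EB24; and EC24 and EB24 had 14 in common.

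Of the IDs ranked 5 to 20 by mean, several had similar levels in all groups. BXY_1668000 stood at 3506 ± 373.9 FPKM in EC12, at 3151 ± 521.7 in EB12, at 3774 ± 494.5 in EC24 and at 3005 ± 317.6 in EB24 (SD, n = 3), and BXY_1278900 between 2152 and 2732 FPKM in all 12 libraries. Neither passed the test with time in either agent. Between the agents at 24 h both passed it without overlap of the libraries, with log2 differences of EB24 from EC24 of -0.33 (limma, adjusted p = 0.0283) and 0.16 (adjusted p = 0.0296), and both calls ended in the fit over all 12 libraries, at adjusted p = 0.184 and 0.389. Of 17 alternatives, the call held in 10 for BXY_1668000 and in 6 for BXY_1278900. BXY_0154000, BXY_0765200 and BXY_0186100 were higher at 24 h in both agents, with log2 differences in EC of 0.69, 0.84 and 1.46 and in EB of 0.56, 0.77 and 1.27; with quantile normalization those of BXY_0154000 were 0.32 and 0.37 (adjusted p = 0.0520 and 0.0572). BXY_0503400 stood at 1227, 3000 and 3242 FPKM in EC12 and at 1447, 2787 and 1055 in EB12, with 5054, 5934 and 5792 in EC24 and 4436, 4868 and 4518 in EB24. Every 24 h library of it was above every 12 h library. BXY_0842200 stood at 2473 ± 305.3 FPKM in EC12, at 2701 ± 499.6 in EB12, at 5231 ± 554.0 in EC24 and at 3829 ± 138.7 in EB24 (SD, n = 3), and passed the test in both time comparisons and between the agents at 24 h. The 24 h call between agents ended in the fit over all 12 libraries (adjusted p = 0.0772) and with no filter (0.0535). Its rise in EB, 0.52, was 0.33 to 0.46 and no longer passed under each of the 4 other scalings, nor with no filter (adjusted p = 0.171) or the replicate block (0.0854). BXY_0033500, BXY_0872800 and BXY_0844500 passed the test for a rise in EC, with log2 differences of 0.73, 0.81 and 0.60, against 0.28, 0.23 and 0.13 in EB, none of which passed it. With quantile normalization the rise of BXY_0844500 in EC was 0.20 (adjusted p = 0.213) and that of BXY_0033500 0.36 (adjusted p = 0.0514), neither past the test. BXY_1561100 stood between 2300 and 3578 FPKM and passed neither time comparison. EB24 was higher than EC24 by 0.24 without overlap of the libraries (limma, adjusted p = 0.0218). This call ended in the fit over all 12 libraries (adjusted p = 0.286) and held in 11 of 17 alternatives. The rises of BXY_0154000 and BXY_0842200 in EB and of BXY_0503400 in EC no longer passed the test with at least 1 library left out.

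Of the first 131 BXY IDs of each group, 90 appeared in all 4 lists and 179 in at least 1, and all 90 were among the 131 described. By level, 31 of the 131 had a mean of at least 2000 FPKM, 27 of 1500 to 2000, 52 of 1000 to 1500, and 21 of 800 to 1000. At the lower edge stood BXY_0730700 at 816.2, BXY_1750800 at 809.6 and BXY_0614800 at 800.6, and just below it BXY_0323200 at 794.2, BXY_0805500 at 791.6 and BXY_0365500 at 789.3. A pair of IDs starting with XLOC also passed 800 and were outside the rule: XLOC_007860 had group means of 322.7 ± 74.7 FPKM in EC12, then 336.7 ± 82.9 in EB12 at 12 h, against 2619 ± 131 in EC24 and 1431 ± 161 in EB24 at 24 h, and XLOC_015971 at 1029 ± 556, 1069 ± 221, 595.9 ± 24.4 and 683.7 ± 25.0 (SD, n = 3).

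The mean over 12 libraries admitted IDs by different routes. A group mean of at least 800 FPKM was reached in all 4 groups by 91 IDs, in 3 groups by 17, in 2 groups by 22 and in 1 group by 1, BXY_0708200, which stood between 728.1 in EC12 and 971.4 in EB24. Of the 131, 79 were at or above 800 in all 12 libraries. An ID with means under 800 in both 12 h groups could pass only through a higher level at 24 h, so the choice of IDs itself sets part of the rises counted below. An ID with low levels in another group passed through its high groups in the same way, so for IDs under 800 in a compared group the difference is given as a description, with its SE and no p-value. BXY_0356600 is the extreme case. Its libraries stood at 68.0, 82.3 and 198.7 FPKM in EC12, at 117.2, 31.5 and 54.0 in EB12, at 1703, 1625 and 1589 in EC24, and at 3185, 3179 and 3255 in EB24. Its group means differed 47.5-fold between EB24 and EB12, and it ranked 1480, 2866, 76 and 10 in EC12, EB12, EC24 and EB24.

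Over all 131 IDs the highest group mean was 1.73 times the lowest at the median. The ratio was under 1.5 for 50 IDs, 1.5 to 2 for 32, 2 to 4 for 41 and at least 4 for 8. The highest group was EC24 for 83 IDs (63.4%, against 25.1% of all 13768 tested IDs) and EC12 for 2 (1.53%, against 24.6%). EB12 and EB24 were highest for 23 IDs each (17.6%, against 17.3% and 33% of all tested). IDs could pass the threshold through their high groups, so the choice of IDs sets part of these shares. The lowest was EC12 for 61 IDs (46.6%, against 21.0% of all tested). The steadiest were BXY_1754600, BXY_1657400, BXY_1278900, BXY_0575300 and BXY_0817300, whose group means differed by factors of 1.08 to 1.15. BXY_1754600 had group means of 1168 ± 108.2, 1198 ± 147.3, 1234 ± 30.3 and 1144 ± 34.8 FPKM in EC12, EB12, EC24 and EB24 (SD, n = 3). They overlapped throughout except between the agents at 24 h, where all EC24 libraries were above all EB24 libraries and the difference did not pass the test (limma, adjusted p = 0.0925).

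**Figure D2:**
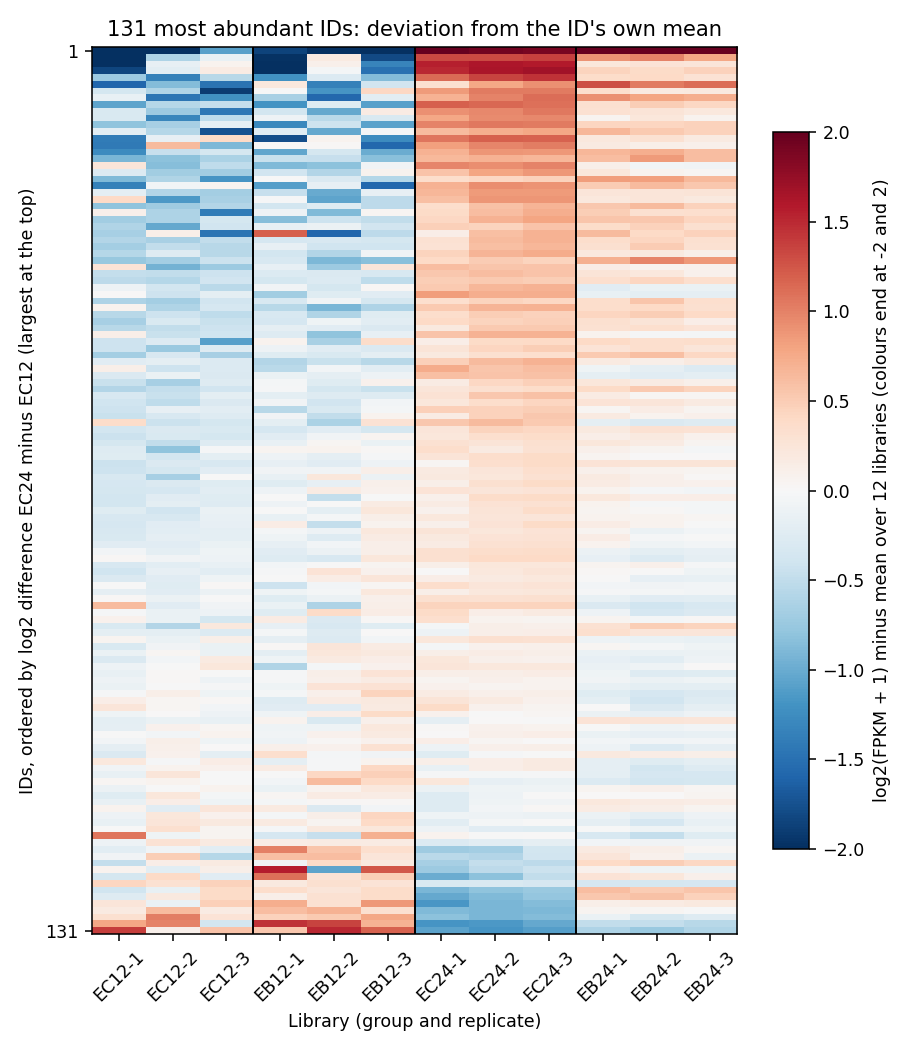
Each row is 1 of the 131 IDs and each column 1 library; colour gives log2(FPKM + 1) minus the ID's mean over 12 libraries, and rows run from the largest rise to the largest fall between EC12 and EC24. The 24 h columns of a group look alike, while the 12 h columns differ from one another within a group.

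The 12 h libraries were less alike than the 24 h libraries. The median SD of log2(FPKM + 1) within a group was 0.203 at 12 h and 0.0777 at 24 h over the 131 IDs. Pearson correlations between libraries across the 131 IDs were 0.977 to 0.997 within EC24 and 0.990 to 0.993 within EB24, but 0.782 to 0.876 within EC12 and 0.745 to 0.915 within EB12. Between EC12 and EB12 they were 0.709 to 0.946, overlapping those within either group, whereas between EC24 and EB24 they were 0.767 to 0.811, below both. These are across IDs, which are not independent replicates, and the selection by level narrows their range.

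At 24 h the question was which abundant transcripts differed with emamectin benzoate. EB24 was higher than EC24 for 25 of the 131 IDs and lower for 68, and 38 did not pass the test (limma on the 6 libraries, Benjamini-Hochberg over 13768 IDs, adjusted p under 0.05). Of all tested IDs 35.9% were called higher and 16.9% lower, and the median log2 difference was -0.18 over the 131 IDs and 0.14 over all tested. The libraries of the groups did not overlap for 100 of the 131 IDs, against 60.1% of all tested IDs. Of these 28 were higher and 72 lower, against 40.4% and 19.7% of all tested IDs. With quantile normalization the calls split 36 higher and 35 lower, against 3541 and 3036 over all 13768 tested IDs. The median over all tested IDs moved to 0.03. When all 12 libraries shared 1 estimate of the spread, 8 were called higher and 21 lower, against 14.5% and 4.74% of all tested. Most differences were small: 3 of the called IDs were at least 2-fold higher and 2 at least 2-fold lower, against 2.56% of all tested IDs in each direction. Among the 91 IDs at a mean of at least 800 in all 4 groups, 13 were called higher and 49 lower, with a median of -0.19. IDs could pass the threshold through a high level in EC24. The choice of IDs therefore sets part of the split over the 131 IDs and over the 91.

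**Figure D3:**
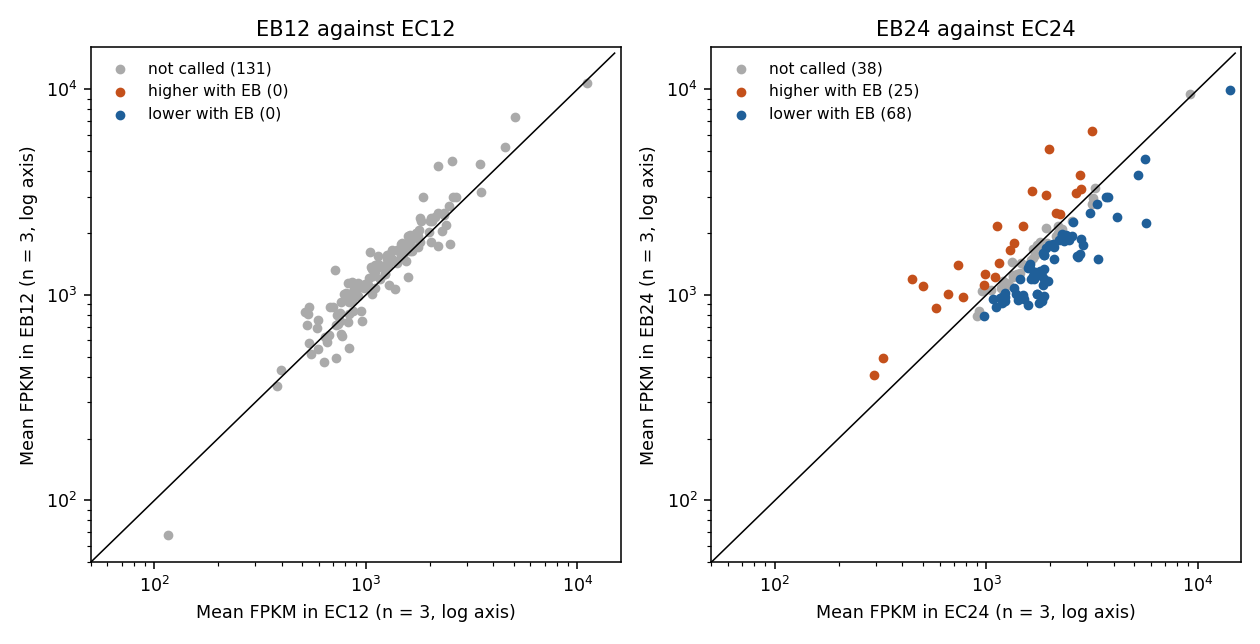
Mean FPKM of the 131 IDs in EB against EC at 12 h (left) and 24 h (right), both axes logarithmic, n = 3 libraries per group; the line marks equal levels, and colours mark IDs past an adjusted p of 0.05. At 12 h no ID is coloured, and at 24 h 25 are higher and 68 lower with EB.

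Among the IDs higher with the agent at 24 h, BXY_0804700 differed most. It stood at 402.8, 448.4 and 479.0 FPKM in EC24 and at 1200, 1242 and 1134 in EB24, with 687.0, 943.3 and 1072 in EC12 and 890.2, 1014 and 1061 in EB12. Only the EC24 libraries stood apart at the low end, below all 9 others. The log2 difference of EB24 from EC24 was 1.43 ± 0.07 (SE).

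BXY_0906600, the fourth most abundant ID, had the same order. It stood at 1842, 1990 and 2076 FPKM in EC24 and at 5335, 4980 and 5100 in EB24, with 2648, 3145 and 4551 in EC12 and 4452, 4115 and 4485 in EB12. The 24 h groups differed by 1.38 ± 0.06 (SE; limma, adjusted p = 8.29e-07), and EC24 was again below every other library. BXY_0020300 was 0.99 ± 0.07 higher in EB24 (limma, adjusted p = 7.12e-06), at 6150, 6513 and 6196 FPKM against 2939, 3336 and 3234 in EC24. These libraries did not overlap, and the 12 h libraries of both agents lay between 3332 and 6035.

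BXY_0779000, BXY_0356600, BXY_0820100, BXY_0387700 and BXY_1577700 completed the largest differences in this direction, with log2 differences of 1.14, 0.97, 0.97, 0.93 and 0.70. BXY_0387700 stood at 742.1, 720.9 and 735.0 FPKM in EC24 and at 1423, 1400 and 1358 in EB24, below the 1521 to 2203 of the 12 h libraries in both cases. For BXY_1577700 EC24 held 1906 ± 251.0 FPKM and EB24 3076 ± 144.7 (SD, n = 3). Apart from BXY_0356600, each of these was lower in the mean of EC24 than in the mean of EC12. Each was also lower in the mean of EB24 than of EB12, and higher in the mean of EB12 than of EC12. The last difference was without overlap for BXY_1577700 only, at 4489 against 2542 FPKM, and did not pass the test.

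Among the IDs lower with the agent, BXY_0804400 and BXY_0544900 differed most. BXY_0804400 stood at 5517, 5783 and 5689 FPKM in EC24 and at 2199, 2279 and 2236 in EB24, which is -1.34 ± 0.06 on the log2 scale (SE; limma, adjusted p = 4.32e-07). At 12 h it ranged from 466.3 to 1982 FPKM in EC12 and from 418.2 to 2013 in EB12, so the 12 h groups overlapped fully. BXY_0544900 stood at 3160, 3426 and 3535 FPKM in EC24 and 1513, 1442 and 1530 in EB24, a difference of -1.17 ± 0.06 (adjusted p = 1.50e-06). Both were high in EC24 and intermediate in EB24. With 1 spread shared by all 12 libraries neither passed the test, at adjusted p = 0.110 for BXY_0804400 and 0.176 for BXY_0544900, nor did BXY_0356600, BXY_0808100 and BXY_0289500 among the other largest differences.

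BXY_1075800, BXY_1560900, BXY_0710000, BXY_0808100, BXY_0592900 and BXY_0289500 followed, with log2 differences of EB24 from EC24 of -0.97, -0.96, -0.94, -0.92, -0.82 and -0.81. BXY_0592900 stood at 2918, 2567 and 2671 FPKM in EC24 and 1633, 1534 and 1435 in EB24, while its neighbour by ID number, BXY_0592800, stood at 3444, 3786 and 3837 in EC24 and 3201, 2891 and 2935 in EB24. The difference for BXY_0592800 was -0.29 ± 0.07 (SE; limma, adjusted p = 0.00635), and it no longer passed the test in the fit over all 12 libraries (adjusted p = 0.122) or with no filter (0.0662). Consecutive numbers occurred in 3 pairs among the 131 IDs, and whether such pairs share reads was not tested.

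In summed level the difference between the agents at 24 h was spread over many IDs. Over the 96 IDs with the lower mean in EB24 the differences of means added to 49098 FPKM, and over the 35 with the higher mean to 18941. The largest single differences of means, EB24 minus EC24, were -4220 FPKM for BXY_0569100, -3425 for BXY_0804400, -1879 for BXY_0544900 and -1741 for BXY_0998300 on one side, and 3169 for BXY_0906600, 3117 for BXY_0020300 and 1568 for BXY_0356600 on the other.

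At 12 h none of the 131 IDs passed the test between EB12 and EC12 (limma, smallest adjusted p = 0.979), and none of all tested IDs did (0% called higher and 0% lower, smallest adjusted p = 0.392). Without adjustment, p was under 0.05 for 2 of the 131 and for 566 of all tested, and the fit over all 12 libraries called 0 of the 131. The median log2 difference was 0.16 over the 131 IDs and -0.05 over all tested, with 97 of the 131 above 0 against 42.2% of all. The libraries of the groups did not overlap for 25 IDs higher in EB12 and 1 lower, against 2.43% and 7.41% of all tested. With quantile normalization they did not overlap for 2 higher and 7 lower, against 3.14% and 6.79% of all tested. EB12 replicate 3 was the highest of the 6 libraries at 12 h for 50 of the 131 IDs (38.2%), against 6.06% of all tested IDs, and without it the median difference was 0.09. A permutation test of 3 against 3 libraries cannot go below p = 0.1.

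Several IDs that differed by agent or time were uneven within both 12 h groups. BXY_0544900 stood at 308.9, 958.3 and 1240 FPKM in EC12 and at 171.0, 1080 and 395.5 in EB12. BXY_0815900 stood at 128.9, 420.2 and 585.4 FPKM in EC12 and at 164.3, 728.2 and 184.8 in EB12. In both, and in BXY_0804400 and BXY_0808100, EC12 replicate 1 and EB12 replicates 1 and 3 were the 3 low libraries and EC12 replicates 2 and 3 and EB12 replicate 2 the 3 high ones. BXY_1767700 had another order, at 2305, 1889 and 2373 FPKM in EC12 but at 6523, 1056 and 5193 in EB12. BXY_1158600 stood at 470.2, 805.1 and 271.1 in EC12 and at 1701, 247.2 and 515.6 in EB12.

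**Figure D4:**
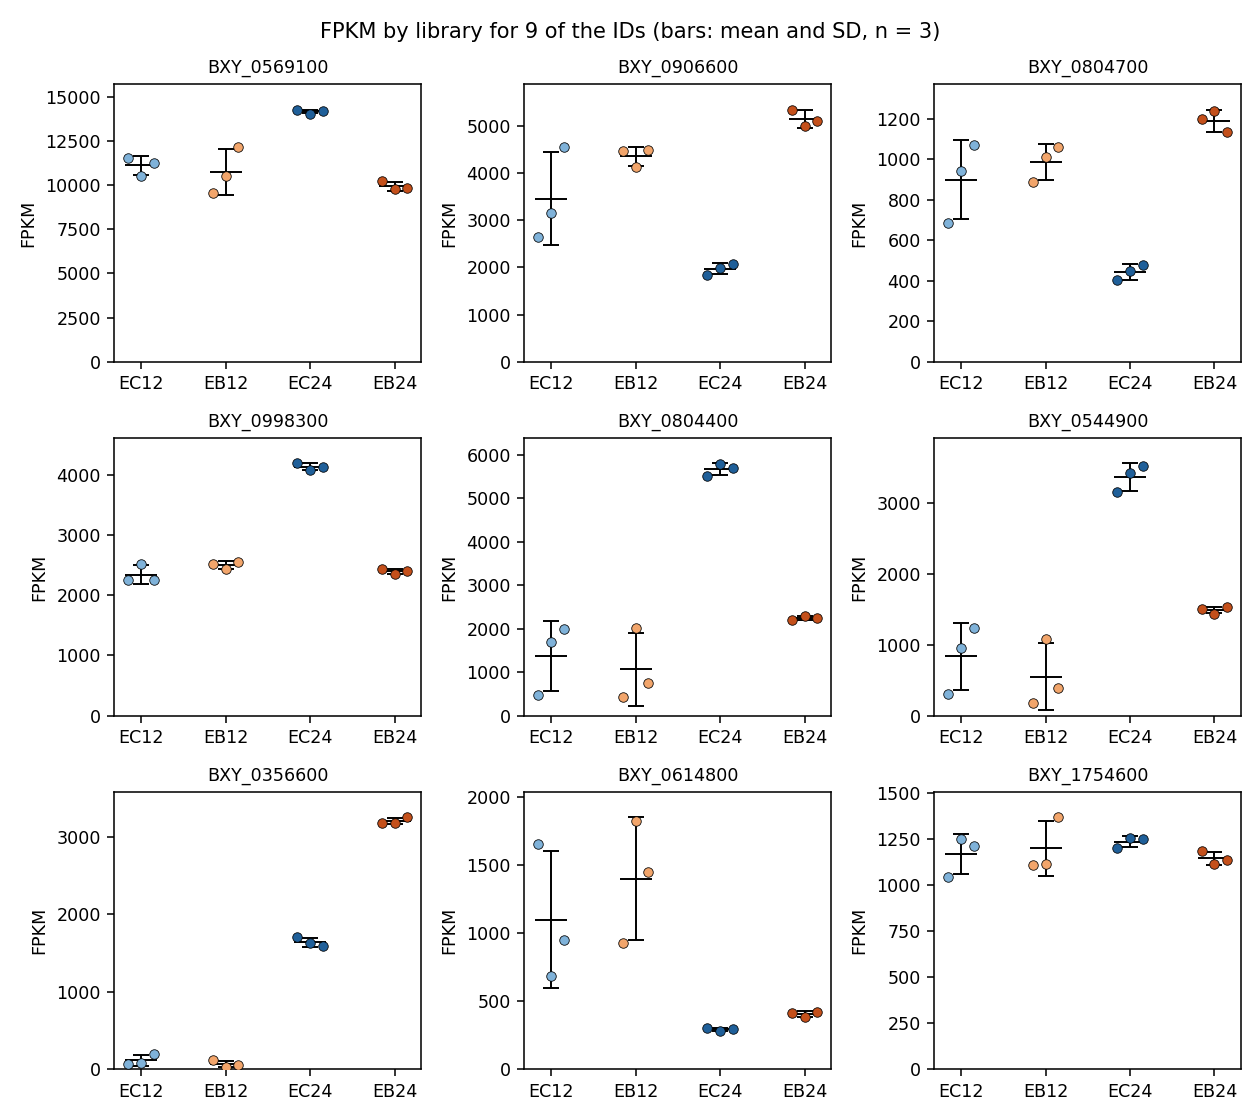
FPKM in each library for 9 of the IDs (panels), by group, with bars for the mean and SD (n = 3) and each axis from 0. BXY_0906600 and BXY_0804700 are low in EC24 alone, BXY_0998300 is high in EC24 alone, BXY_0356600 lies between 31.5 and 198.7 FPKM at 12 h, and BXY_1754600 stays between 1045 and 1368 FPKM.

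From 12 h to 24 h in the adjuvant groups, 81 of the 131 IDs rose and 11 fell, and 39 did not pass the test (limma on the 6 EC libraries). Of all tested IDs 23.7% were called higher and 24.7% lower, and the median log2 difference was 0.56 over the 131 IDs and 0.04 over all tested. Quantile normalization gave 36 rises and 37 falls, against 3052 and 3549 over all 13768 tested IDs. Rescaling each library to a common sum moved the median over all tested IDs to -0.11. Of the called IDs, 34 rose and 6 fell by at least 2-fold, against 11.1% and 8.35% of all tested IDs. Among the 91 IDs at a mean of at least 800 in all 4 groups, 51 were called higher and 5 lower. Their median was 0.46. This subset leaves out IDs under 800 at 12 h, and also IDs that fell under 800 at 24 h. BXY_0614800, at 294.3 FPKM in EC24, is one of the falls left out. The split among the 91 is therefore still set in part by the choice of IDs.

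The largest rises from EC12 to EC24, all without overlap between the libraries, were those of BXY_0356600, BXY_0815900, BXY_0804400, BXY_0544900, BXY_1560900, BXY_1766200, BXY_0945200 and BXY_0753800, with log2 differences of 3.97, 2.36, 2.29, 2.23, 2.19, 1.98, 1.92 and 1.88. BXY_1560900 stood at 431.9, 277.5 and 481.7 FPKM in EC12 and at 1566, 1821 and 1931 in EC24, which is 2.19 ± 0.21 on the log2 scale (SE). In FPKM the largest differences of means, EC24 minus EC12, were 4283 for BXY_0804400, 4118 for BXY_0322900, 3104 for BXY_0503400 and 3050 for BXY_0569100, the last not past the test.

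The largest falls from EC12 to EC24 were those of BXY_0614800, BXY_0580100, BXY_0387500, BXY_0387700, BXY_0779000, BXY_0804700, BXY_0906600 and BXY_0013600, with log2 differences of -1.80, -1.59, -1.40, -1.22, -1.18, -1.0, -0.77 and -0.71. BXY_0614800 stood at 1660, 684.8 and 951.5 FPKM in EC12 and at 305.1, 281.4 and 296.4 in EC24, a difference with an SE of 0.28. The 12 h values were spread more than 2-fold, yet every one was above every 24 h value. The fall of BXY_0906600 (adjusted p = 0.0169) no longer passed the test without any 1 of the 3 EC24 libraries, at adjusted p = 0.0520 to 0.0661.

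From 12 h to 24 h in emamectin benzoate, 40 of the 131 IDs rose, 10 fell and 81 did not pass the test (limma on the 6 EB libraries). Of all tested IDs 28.7% were called higher and 11.4% lower, and the median log2 difference was 0.16 over the 131 IDs and 0.15 over all tested. The split was 33 and 17 after rescaling to a common sum, 32 and 18 with quantile normalization, and 28 and 26 with median ratio scaling. Over all 13768 tested IDs the splits were 3424 and 2030, 2908 and 2640, and 2993 and 2647 in the same order. Median ratio scaling moved the median over all tested IDs to -0.02. Without EB24 replicate 1, 2 or 3 the calls numbered 30, 29 and 30, against 3423, 3167 and 3451 over all tested IDs. Of the called IDs 15 rose and 2 fell by at least 2-fold, against 13.6% and 3.27% of all tested IDs. Among the 91 IDs at a mean of at least 800 in all 4 groups, 20 were called higher and 6 lower. Their median was 0.08, below that of all tested IDs. The choice of these 91 limits this split in the same way as in EC.

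The largest rises in EB were those of BXY_0356600, BXY_0815900, BXY_0544900, BXY_1766200, BXY_0753800, BXY_0769600, BXY_0503400 and BXY_0935900, with log2 differences of 5.75, 2.09, 1.83, 1.66, 1.62, 1.54, 1.51 and 1.46. For BXY_0356600, whose 12 h level was far under 800, the SE was 0.42. BXY_0186100 stood at 1494, 1483 and 1146 FPKM in EB12 and 3115, 3681 and 3135 in EB24, and rose by 1.27 ± 0.15 (adjusted p = 0.00171). Its rise in EC was 1.46 ± 0.13, and its 24 h levels, 3248 ± 63.5 FPKM (EC24) and 3310 ± 321.0 FPKM (EB24), each with SD and n = 3, overlapped.

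The largest called falls in EB without overlap were those of BXY_0614800, BXY_0580100, BXY_0387500, BXY_0005000, BXY_0013600, BXY_1049900, BXY_0387700 and BXY_1116300, with log2 differences of -1.73, -1.67, -0.83, -0.66, -0.60, -0.59, -0.51 and -0.46. BXY_1767700, BXY_1577700 and BXY_0779000 were also lower in EB24, by -0.61, -0.52 and -0.48, and did not pass the test. BXY_0580100 stood at 1911, 1800 and 1140 FPKM in EB12 and at 501.0, 507.6 and 477.7 in EB24, without overlap. BXY_0013600 stood at 2072, 2258 and 2198 in EB12 and at 1437, 1420 and 1431 in EB24, beside 1468, 1460 and 1437 in EC24, so the 24 h libraries of both agents lay between 1420 and 1468 FPKM. With EB12 replicate 3 or any 1 of the EB24 libraries left out, BXY_0005000, BXY_1049900 and BXY_1116300 no longer passed the test, and BXY_0387700 did not without any 1 of the EB24 libraries. BXY_0544900 and BXY_0815900 had EB12 means of 548.7 and 359.1 FPKM, under 800, so their rises in EB are descriptions. With the same libraries left out, their differences were 1.79 to 1.86 and 1.79 to 2.14, and neither was called. BXY_0544900 was also not called after rescaling to a common sum, with median ratio scaling or with quantile normalization.

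The time comparisons of EC and EB share no library, so their calls can be set side by side. Of the 131 IDs, 38 rose in both and 5 fell in both, against 15.2% and 9.19% of all tested IDs. A further 43 rose in EC and were not called in EB (8.31% of all tested), and 6 fell in EC and were not called in EB (15.3%). In EB alone 2 were called higher and 5 lower (13.3% and 2.04%), and 32 were called in neither. No ID of the 131 rose in one and fell in the other, as 0.407% of all tested did. A call in one and not in the other does not show a difference between them, which the agent by time interaction tests directly.

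**Figure D5:**
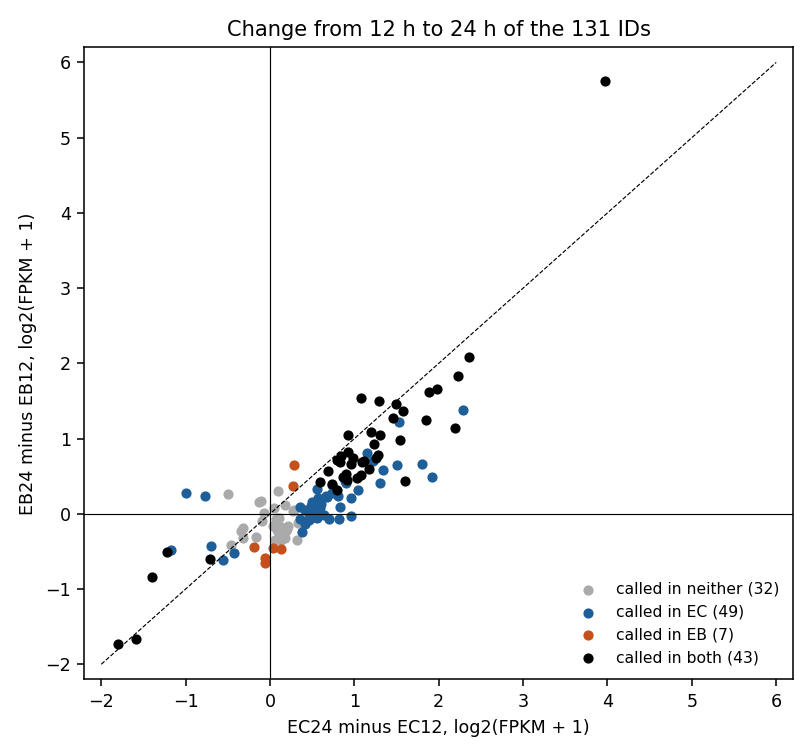
Log2 difference from 12 h to 24 h in EB (vertical) against EC (horizontal) for the 131 IDs, on log2(FPKM + 1) with 3 libraries per group; colours mark where the change passed the test, and the dashed line marks equal change. Most points to the right of 0 lie below the dashed line, and BXY_0356600 is the point at 3.97 and 5.75.

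In the interaction over all 12 libraries, the change with time in EB minus that in EC was above 0 for 2 IDs and below 0 for 8 past the test, against 6.46% and 1.86% of all tested IDs, and the median was -0.38 over the 131 IDs and 0.21 over all tested. A high level in EC24 both admitted IDs and lowers this value, so the choice of IDs sets part of the split and of the median. Among the 91 IDs at a mean of at least 800 in all 4 groups, 1 was called above 0 and 5 below, with a median of -0.39. With quantile normalization the 10 calls split 9 above and 1 below, against 553 and 425 over all 13768 tested IDs. After rescaling to a common sum or to the sum of the remaining IDs they split 3 and 5. Over all tested IDs these splits were 1560 and 248, and 838 and 254. The median over all tested IDs was 0.07 with median ratio scaling. The number called was 19, 23 and 26 without EC12 replicate 1, EB12 replicate 1 or EB12 replicate 2, 3 without EB12 replicate 3 or EC24 replicate 1, and 2 without any other 1 of the 24 h libraries. Over all tested IDs it was 1828, 1229 and 2466, then 458 and 382, then 177 to 223.

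The IDs above 0 were BXY_0804700 at 1.27 ± 0.21 (SE) and BXY_0906600 at 1.01 ± 0.25 (limma, adjusted p = 0.0360), whose levels are given above. Those below 0 were BXY_1624700, BXY_1672800, BXY_1075200, BXY_0998300, BXY_0710000, BXY_0730000, BXY_0221400 and BXY_1100000, at -1.16, -0.99, -0.89, -0.89, -0.76, -0.61, -0.61 and -0.56. BXY_0998300, the tenth most abundant ID, stood at 2254, 2524 and 2253 FPKM in EC12, 2525, 2437 and 2564 in EB12, 4198, 4084 and 4138 in EC24, and 2436, 2355 and 2405 in EB24. Only EC24 stood apart, above all 9 others, with a rise of 0.82 ± 0.14 in EC (limma, adjusted p = 0.00218) against -0.06 ± 0.11 in EB (adjusted p = 0.659) and an interaction at adjusted p = 0.0130. BXY_1100000 stood at 820.9, 811.1 and 852.5 FPKM in EC12, 942.5, 930.0 and 908.1 in EB12, 1653, 1744 and 1695 in EC24, and 1363, 1314 and 1203 in EB24. It rose in both agents, by 1.03 ± 0.11 in EC and 0.48 ± 0.10 in EB, and the interaction had an adjusted p of 0.0323. With quantile normalization the interaction of BXY_1100000 was -0.12 (limma, adjusted p = 0.602). BXY_0998300 kept its interaction call under every alternative scaling, filter and fit run and with each library left out. So did BXY_0804700, but its mean in EC24 was 443.4 FPKM, under 800, so this is a description. The other 8 lost the call under at least 1 alternative. Of these, BXY_1624700 (596.3 in EC12 and 754.8 in EB12) also had means under 800. So did BXY_1075200 (762.7 in EC12) and BXY_0221400 (787.3 in EC12), and all 3 are descriptions as well.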

How the data were processed

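The deposited table holds FPKM values in 12 library columns, each of which matched 1 library title (0 columns unused). The aligner TopHat2 2.1.1 is listed, per the submitters' processing notes, for this series; genome build, annotation, counting tool, strand handling and filters: not given in the sources used here. FPKM gives no read counts, so no count model and no counting interval was used, and how reads of overlapping or near-identical genes were assigned is unknown.

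From the deposited FPKM values, log2(FPKM + 1) was computed, which understates changes of low genes. IDs at 1 FPKM or above in 3 or more libraries (13768, of them 13553 BXY and 215 XLOC) were fitted with limma 3.58.1 in R 4.3.3 (moderated variances with trend, two-sided, Benjamini-Hochberg over all 13768 IDs, threshold 0.05). Each comparison of 2 groups used its own 6 libraries, because the 12 h libraries vary more, and the interaction used all 12. The fits were also run on simulated data with independent noise and few changed IDs. That setting is unlike these data, so the run carries no support here.

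The IDs described, the tests and the alternatives were chosen with earlier results of these data known. IDs named are the 20 with the highest means, up to 8 in each direction per comparison with the largest called differences and no overlap between groups (no such condition for the interaction), the 5 with the smallest and the 5 with the largest ratio of group means, the 5 with the largest SD at 12 h, and those at the edge of the threshold. BXY_0708200 and the XLOC IDs were named after their values were seen. Alternatives were other pseudocounts, filters, scalings and thresholds, a shared fit, a replicate block, no trend, weights per time and leaving out each library; rescaling to the sum of the remaining IDs was added after seeing the data.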

Additional observations from a re-analysis of the deposited data

Results flagged for a closer look

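The agent by time interaction over all 12 libraries asks whether the change from 12 h to 24 h differs between the agents. With limma it was called for 10 of the 131 abundant IDs, 2 above 0 and 8 below. Of all tested IDs 6.46% were called above 0 and 1.86% below, 1145 of 13768 in either direction. The choice of IDs sets part of the split among the 131, since a high level in EC24 both admitted IDs and lowers the interaction. The interaction, EB minus EC on the log2 scale, was above 0 for BXY_0804700 at 1.27 and for BXY_0906600 at 1.01. It was -1.16 for BXY_1624700, -0.99 for BXY_1672800, -0.89 for BXY_1075200, -0.89 for BXY_0998300, -0.76 for BXY_0710000, -0.61 for BXY_0730000, -0.61 for BXY_0221400 and -0.56 for BXY_1100000. The call held in all 23 alternatives for BXY_0804700 and BXY_0998300, in 17 for BXY_1672800 and in 15 for BXY_0221400. It held in 14 for BXY_0906600 and BXY_1100000, in 11 for BXY_1624700, in 8 for BXY_0710000 and BXY_0730000 and in 7 for BXY_1075200. BXY_0804700, BXY_1624700, BXY_1075200 and BXY_0221400 had a group mean under 800 FPKM, so theirs are descriptions.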

How the results depend on the processing

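Of 1539 alternative values for the named IDs, 1306 kept their direction and their side of the threshold, 232 kept the direction and no longer passed the test, 1 was 0 by construction (BXY_0569100 with quantile normalization), and 0 changed sign. These alternatives were run only for IDs and comparisons already called, most without overlap between the groups. Filters, the shared fit, the replicate block, the trend setting and weights leave the log2 difference unchanged. Leaving out 1 library cannot reverse groups that do not overlap. The absence of sign changes was therefore largely fixed in advance and carries no support. The values include IDs under 800 in a compared group. The counts of IDs called between EB24 and EC24 (93), EC24 and EC12 (92) and EB24 and EB12 (50) and for the interaction (10) stayed within 1.5 times under the alternatives that are not listed here. For EB24 against EC24 the fit over all 12 libraries called 29 IDs, and a log2 difference of at least 1 left 5. Over all 13768 tested IDs these numbers were 2651 and 706. The same threshold left 40 for EC24 against EC12, 17 for EB24 against EB12 and 3 for the interaction. Over all tested IDs it left 2672, 2329 and 544. With no filter on low values 32 were called for EB24 against EB12 and 5 for the interaction. Of all 18036 IDs then tested, 5011 and 948 were called. A mean FPKM of at least 5 gave 16 for the interaction and weights per time point 17. Over all tested IDs these gave 1175 of 10547 and 1269 of 13768. Leaving out 1 library at a time gave 29 to 62 for EB24 against EB12 and 2 to 26 for the interaction. Over all tested IDs it gave 3167 to 6839 and 177 to 2466. The cause was not tested.

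The share of the library sum moved with the threshold by construction. At 600 FPKM EC12 held 27.2%, EB12 29.4%, EC24 33.5% and EB24 30.6%, and at 1000 FPKM 20.5%, 22.0%, 26.0% and 23.5% in that order. Quantile normalization gave 24.8% in EC12 and 25.5% in EC24.

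Not every pair of libraries with the same replicate number deviated together: the correlations of their deviations were 0.343, 0.15 and -0.052 for EB12 and EC12 and -0.04 to 0.063 in the other comparisons, so the numbers were not taken as pairs. With the replicate block 87, 0, 89 and 43 IDs were called for EB24 against EC24, EB12 against EC12, EC24 against EC12 and EB24 against EB12, and 7 for the interaction. Over all tested IDs 6889, 0, 6210 and 4853 were called, and 994 for the interaction. Read depth is unknown, and FPKM is relative to the library, so a fall of 1 ID cannot be told apart from a rise of others.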
